A study of Mus musculus with 2 samples.

Results

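The liver handles nitrogen by zone, and 10 genes that mark its zones were followed here in livers of apoE-KO mice, which lack apolipoprotein E. Of the 27962 gene names on the arrays, these 10 were taken by name, 6 as markers of the hepatocytes around the central vein (Glul, Oat, Rhbg, Slc1a2, Axin2 and Tbx3) and 4 as markers of the periportal region (Gls2, Hal, Sds and Cdh1). The mice were male, of the C57BL/6 strain, and Apoe was disrupted in both diet groups. At 10 weeks of age they received normal chow, or the high-Chol diet, which is that chow with 1.25% cholesterol, for 1 week. Liver RNA from 3 independent experiments per diet was hybridized to one-colour Agilent arrays, so that 3 normal chow arrays were compared with 3 high-Chol arrays. None of the livers had an intact Apoe gene, and the comparison is therefore of diets within this genotype only.

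Blood enters the liver lobule beside the portal vein and leaves through the central vein, and hepatocytes along this path divide the work. Periportal hepatocytes take glutamine, histidine and serine apart and feed the released ammonia into the urea cycle, whereas the last rows of cells around the central vein capture the ammonia that escaped and store it as glutamine. Wnt proteins made by endothelial cells of the central vein act through beta-catenin on these last rows, and Glul, Axin2 and Tbx3 are known as genes that this signal turns on. In whole liver RNA the zones are mixed, so fewer cells of a zone and less RNA per cell cannot be told apart.

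A spot's brightness was read as the log2 signal relative to the 75th percentile of its array, called the log2 level here, and a diet difference is the mean log2 level on the high-Chol diet minus that on normal chow. The 3 normal chow arrays and the array high-Chol 1 lay on slide 1, and high-Chol 2 and high-Chol 3 lay on slide 2. Slide and diet thus overlapped in part, and the 75th percentile of the signal was 271 to 373 on slide 1 and 762 to 799 on slide 2. A second fit held the slide as a block, and there the estimate is the difference of high-Chol 1 from the normal chow arrays of its own slide. The p-values measure the spread between these arrays, and an exact permutation test of 3 arrays against 3 cannot give a p below 0.1. All 10 genes were represented by a probe well above background on all 6 arrays, and all 10 passed the filter on dim probes.

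The tissue label was checked on marker genes. Of 7 hepatocyte markers tested, Alb, Ahsg, Hnf4a, Apoa1, Apob, Tat and Ttr, all were well above background on the 6 arrays, and their differences had a median of -0.34, with 0 called by limma and 2 at an unadjusted p under 0.05, 1 in each direction, beside 12.3% of all genes higher and 8.83% lower at that threshold. Of 7 macrophage markers, 7 had a difference above 0, with a median of 1.42, and 4 were called by limma, beside 2.69% of all 16727 genes called higher (0.0658% with slide as a block): Cd68 at 1.74, Cd5l at 1.42, Marco at 1.83 and Lyz2 at 1.78. With slide as a block the median was 1.13, 7 of 7 were above 0 and 0 were called, with adjusted p-values from 0.0830 to 0.250 by limma for these 4. The mean shift of the macrophage list from the normal chow mean was -0.16 to 0.13 on the normal chow arrays and 1.05 to 1.31 on the high-Chol arrays. Cholangiocyte markers, which label the bile ducts beside the portal vein, had a median of -0.47, or -0.30 with slide as a block. Of these markers 1 of 5 was above 0, 0 were called by limma and 2 were at an unadjusted p under 0.05, both lower. The medians of the liver endothelial, stellate and lymphocyte lists were 0.23, 0.22 and 0.33, or 0.29, 0.50 and 0.03 with slide as a block. Col1a1, a collagen of stellate cells, was the single gene called in these lists, at 1.04, a call that the block for slide ended (1.16, adjusted p = 0.148 by limma). The part of these cell types in the values of the zonation genes was not tested.

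Promoter sequence was at hand for 5 of the 10 genes (RefSeq, GRCm38.p6), and 3 are shown because Axin2 had the largest difference of the 10 and because Slc1a2 and Hal held a TCF/LEF motif, the kind of site through which beta-catenin acts. The motifs searched were CTTTGAA and CTTTGAT, on both strands, in windows from 250 bases before to 50 bases after the start of the gene. CTTTGAT was found in Slc1a2 (opposite strand, starting at -207) and in Hal (same strand, starting at -199). Neither motif was in the windows of Glul, Oat and Axin2, which says nothing of other sites of these genes. Over all 32851 windows of this length, 5.14% held CTTTGAA and 3.73% held CTTTGAT. The 250 bases before the start follow, 5′ to 3′ on the strand of the gene, with the motif in capitals, for Axin2 (chr11:108920099-108920348, plus strand), Slc1a2 (chr2:102706188-102706437, plus strand) and Hal (chr10:93488518-93488767, plus strand).
Axin2: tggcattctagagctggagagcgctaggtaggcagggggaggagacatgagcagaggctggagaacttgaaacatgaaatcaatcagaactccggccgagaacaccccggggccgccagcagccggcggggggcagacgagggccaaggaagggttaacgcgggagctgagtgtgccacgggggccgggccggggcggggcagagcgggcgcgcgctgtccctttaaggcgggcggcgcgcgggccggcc
Slc1a2: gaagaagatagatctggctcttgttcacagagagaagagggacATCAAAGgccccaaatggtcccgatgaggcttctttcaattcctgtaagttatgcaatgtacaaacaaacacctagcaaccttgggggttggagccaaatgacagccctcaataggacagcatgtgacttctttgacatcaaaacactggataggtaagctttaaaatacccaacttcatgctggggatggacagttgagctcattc
Hal: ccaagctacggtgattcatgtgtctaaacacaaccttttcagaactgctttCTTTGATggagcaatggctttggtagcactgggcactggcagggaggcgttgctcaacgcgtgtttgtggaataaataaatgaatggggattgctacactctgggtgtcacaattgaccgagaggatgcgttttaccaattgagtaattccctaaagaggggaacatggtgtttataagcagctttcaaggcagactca

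None of the 10 genes was called between the diets at an adjusted p of 0.05 by limma, where 2.69% of the 16727 genes tested were called higher on the high-Chol diet and 0.227% were called lower. At an unadjusted p under 0.05 in limma, Axin2 was higher and Sds was lower, 2 of 10, beside 12.3% of all genes higher and 8.83% lower. The methods' t-test also called 0 of the 10 after adjustment, with Axin2 higher and Gls2 lower at an unadjusted p under 0.05. Of the 16682 genes it could test, it called 0.024% higher and 0.00599% lower after adjustment, and at that unadjusted threshold 8.4% lay higher and 8.31% lower. The differences of 2 genes were above 0 (Axin2 and Oat) and those of 8 were below 0, where 47.8% of all genes were above and 52.2% below. The diets did not overlap in 1 gene that was higher on the high-Chol diet (Axin2) and in 2 that were lower (Gls2 and Sds), beside 11.9% and 14% of the 16435 genes with a value on every array. The shares called and without overlap are near those of all genes, and with 10 genes the counts are small. Axin2 was the single gene of the 10 past 1.5-fold, which 15.4% of all genes were in the higher and 5.84% in the lower direction.

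**Figure D1:**
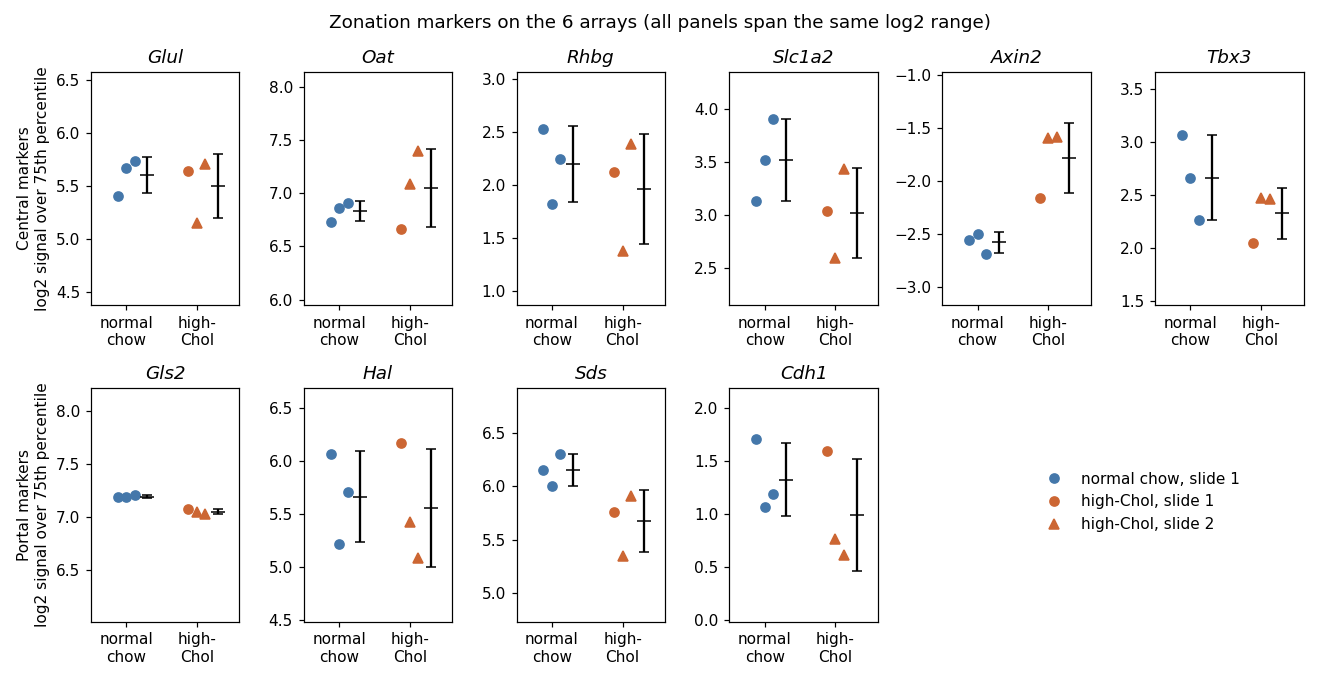
Log2 level of the 10 zonation genes on each array (y axis, log2 signal over the 75th percentile of the array) by diet, with central genes in the upper row and portal genes in the lower row. Circles are arrays of slide 1 and triangles arrays of slide 2, and the bars give the mean ± SD of 3 arrays; Axin2 lies higher on every high-Chol array, Gls2 and Sds lie lower on every one, and the other genes overlap between the diets.

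Glul encodes glutamine synthetase, which joins ammonia to glutamate in the cells next to the central vein. Its log2 level was 5.41, 5.67 and 5.73 on the normal chow arrays, 5.64 on high-Chol 1, and 5.15 and 5.70 on the arrays of slide 2. The diets overlapped, with high-Chol 2 below all other arrays. The means were 5.60 ± 0.17 for normal chow and 5.50 ± 0.30 for high-Chol (SD, n = 3 each), a difference of -0.10 (SE 0.20, adjusted p = 0.775 by limma), with a 95% interval from -0.58 to 0.37. Its sign turned with slide as a block (0.04), with quantile normalization (0.10) and with a normexp background (0.20). A dimmer Glul probe, designed on another transcript record and placed about a kilobase away, gave a difference of -0.26. The brighter probe lies at chr1:153870358-153870417 in mm7, the genome build of the array annotation, on the plus strand. This annotation names the gene of a probe and not its exon, intron or UTR.

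Oat encodes ornithine aminotransferase, which turns ornithine toward glutamate in the same central cells. Its log2 level was 6.73, 6.86 and 6.91 on normal chow, 6.67 on high-Chol 1, and 7.09 and 7.40 on slide 2. High-Chol 1 was the lowest of the 6 arrays and both arrays of slide 2 were above all others, so that the diets overlapped. The means were 6.83 ± 0.09 and 7.05 ± 0.37 (SD, n = 3 each), a difference of 0.22 (SE 0.21, adjusted p = 0.544 by limma). With an array left out the difference ran from 0.049 (without high-Chol 3) to 0.42 (without high-Chol 1), on slide 1 alone it was -0.16, and scaling to the median gave -0.01, or 0.24 above the median of all genes. The probe lies at chr7:128962937-128962996 (mm7, minus strand).

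Rhbg, a membrane channel for ammonia, had a log2 level of 2.53, 1.82 and 2.25 on normal chow, 2.12 on high-Chol 1, and 1.38 and 2.39 on slide 2. The diets overlapped, and the lowest and the next to highest value both came from slide 2. The difference was -0.24 (SE 0.30, adjusted p = 0.661 by limma), between means of 2.20 ± 0.35 and 1.96 ± 0.52 (SD, n = 3 each). It was -0.08 with slide as a block, and 0.05 without high-Chol 2. The probe lies at chr3:88357144-88357203 (mm7, minus strand).

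Slc1a2, a transporter that carries glutamate into the cell, had a log2 level of 3.13, 3.51 and 3.91 on normal chow, 3.03 on high-Chol 1, and 2.59 and 3.43 on slide 2. The levels on high-Chol 1 and high-Chol 2 were below every normal chow array, and high-Chol 3 lay among them. The means were 3.52 ± 0.39 and 3.02 ± 0.42 (SD, n = 3 each), a difference of -0.50 (SE 0.28, adjusted p = 0.337 by limma) with a 95% interval from -1.16 to 0.16. With slide as a block the difference was -0.48, and it stayed below 0, from -0.74 to -0.12, under each other background, scaling, probe rule and array left out (other filters leave the difference as it is). A second probe of Slc1a2, next to this one on the plus strand of chromosome 2, had a log2 level of 0.87, 1.05 and 1.30 on normal chow, 0.79 on high-Chol 1, and 0.12 and 1.17 on slide 2. Its difference was -0.38, with high-Chol 2 lowest and high-Chol 3 again among the normal chow arrays. Another probe, on the opposite strand, was well above background on 1 array and was not used. The brightest Slc1a2 probe, shown because 2 probes of this gene could be set side by side, lies at chr2:102628336-102628395 (mm7, plus strand) and reads as follows.
Slc1a2 probe: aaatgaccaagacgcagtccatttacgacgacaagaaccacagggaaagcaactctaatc

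Axin2 encodes a scaffold of the complex that breaks down beta-catenin, and its transcript is a classical readout of Wnt signaling. Its log2 level was -2.55, -2.50 and -2.69 on normal chow, -2.16 on high-Chol 1, and -1.60 and -1.59 on slide 2. Every high-Chol array was above every normal chow array. High-Chol 1 lay closer to the normal chow arrays of its slide than did the arrays of slide 2, which holds no normal chow array. The means were -2.58 ± 0.10 and -1.78 ± 0.33 (SD, n = 3 each), a difference of 0.80 (SE 0.20, adjusted p = 0.0957 by limma), or 1.74-fold. The 95% interval ran from 0.33 to 1.26. High-Chol 1 lay 0.42 above the normal chow mean and the arrays of slide 2 lay 0.98 above it on average, and in the fit with slide as a block, where 0.0658% of all genes were called higher and 0% lower, the adjusted p of Axin2 was 0.576 by limma. Without high-Chol 1 the difference was 0.98 and was called (adjusted p = 0.00856 by limma), as 13.9% of all genes were in this direction, but all normal chow arrays were then on one slide and all high-Chol arrays on the other, so diet and slide cannot be told apart. With a normexp background, which replaces the subtraction made by the software, the direction turned to -0.09, or 0.02 above the median of all genes. The probe is at chr11:109059707-109059766 (mm7, plus strand), and its promoter is the first of those printed above.

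Tbx3, a T-box repressor of transcription, had a log2 level of 3.07, 2.66 and 2.26 on normal chow, 2.05 on high-Chol 1, and 2.47 and 2.46 on slide 2. The normal chow arrays alone spanned 0.81, more than in 84.8% of the genes tested, and the high-Chol arrays overlapped with their lower part. The means were 2.66 ± 0.40 and 2.33 ± 0.24 (SD, n = 3 each), a difference of -0.34 (SE 0.24, adjusted p = 0.431 by limma). With slide as a block it was -0.61, and under each other background, scaling and array left out it ranged from -0.58 to -0.10. A second Tbx3 probe was well above background on 0 arrays. The probe used lies at chr5:118918450-118918509 (mm7, plus strand).

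Of the portal genes, Gls2 encodes the liver form of glutaminase, which frees ammonia from glutamine for the urea cycle. Its log2 level was 7.18, 7.18 and 7.20 on normal chow, 7.07 on high-Chol 1, and 7.04 and 7.02 on slide 2. The arrays of a diet lay closer together than for any other gene tested, with a pooled SD of 0.0190, and every high-Chol array was below every normal chow array. The means were 7.19 ± 0.011 and 7.04 ± 0.024 (SD, n = 3 each), a difference of -0.14, or 0.905-fold. Because limma moves such a small spread toward that of the other genes, its SE was 0.13 and the adjusted p 0.528, whereas the methods' t-test, which takes the spread of the gene as it is, gave an adjusted p of 0.0902. The step between the diets was -0.12 on slide 1 alone, but it is as small as the differences between scalings, and its sign turned with quantile normalization (0.02) and a normexp background (0.17). The Gls2 probe lies at chr10:127711271-127711330 (mm7, plus strand).

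Hal encodes histidine ammonia-lyase, the first enzyme of histidine breakdown. Its log2 level was 6.07, 5.22 and 5.70 on normal chow, 6.17 on high-Chol 1, and 5.42 and 5.08 on slide 2. High-Chol 1 was the highest of the 6 arrays and high-Chol 3 the lowest. The means were 5.66 ± 0.43 and 5.56 ± 0.56 (SD, n = 3 each), with a difference of -0.11 (SE 0.33, adjusted p = 0.868 by limma) and a 95% interval from -0.89 to 0.68. On slide 1 alone the difference was 0.51, and for the arrays of slide 2 the mean difference from normal chow was -0.41. Its promoter, printed above, held 1 CTTTGAT, and the probe lies at chr10:93075295-93075354 (mm7, plus strand).

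Sds encodes serine dehydratase, which makes pyruvate and ammonia from serine. Its log2 level was 6.16, 6.00 and 6.30 on normal chow, 5.76 on high-Chol 1, and 5.35 and 5.91 on slide 2. Every high-Chol array was below every normal chow array, but all normal chow arrays were on slide 1, so slide 2 gives no comparison of its own. The means were 6.15 ± 0.15 and 5.67 ± 0.29 (SD, n = 3 each), a difference of -0.48 (SE 0.19, adjusted p = 0.223 by limma), or 0.716-fold. The 95% interval ran from -0.94 to -0.02. The difference was -0.40 with slide as a block and stayed below 0 under each other background, scaling and array left out, from -0.72 to -0.15. The probe lies at chr5:119717082-119717141 (mm7, plus strand).

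Cdh1 encodes E-cadherin, the adhesion protein of epithelial cell junctions, which periportal hepatocytes and bile duct cells carry. Its log2 level, averaged over 10 spots of 1 probe, was 1.71, 1.06 and 1.19 on normal chow, 1.59 on high-Chol 1, and 0.76 and 0.61 on slide 2. Both arrays of slide 2 lay below all arrays of slide 1, and high-Chol 1 lay between the normal chow arrays. The means were 1.32 ± 0.34 and 0.99 ± 0.53 (SD, n = 3 each), a difference of -0.33 (SE 0.30, adjusted p = 0.529 by limma), and on slide 1 alone it was 0.27. With an array left out it ran from -0.63 (without high-Chol 1) to -0.14 (without normal chow 1). Of 6 other adherens junction genes tested, 0 were called by limma (0 at an unadjusted p under 0.05). Their differences ran from -0.25 to 0.10, and the largest were those of Jup (-0.25), Ctnnd1 (-0.25), Ctnna1 (-0.13) and Cdh2 (0.10), 3 catenins, which bind cadherins inside the cell, and N-cadherin, and the signs of all 4 turned with slide as a block. The probe lies at chr8:105268557-105268616 (mm7, plus strand).

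**Figure D2:**
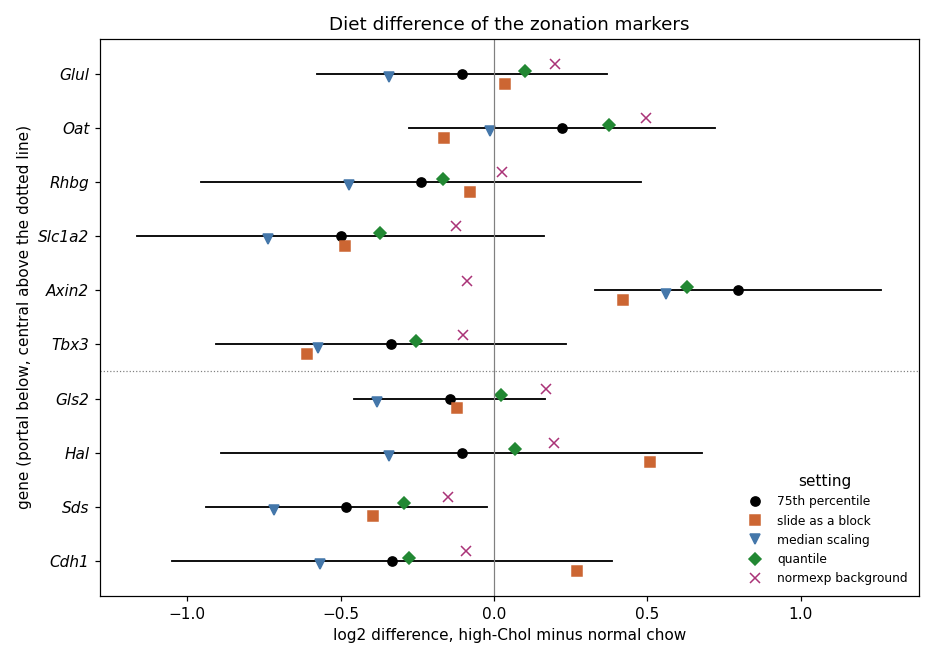
Diet difference of each zonation gene (x axis, log2, high-Chol minus normal chow) in 5 settings, with central genes above the dotted line and portal genes below it. Black points are the values reported, with their 95% interval from limma; the intervals of Axin2 (0.33 to 1.26) and Sds (-0.94 to -0.02) exclude 0, squares give the fit with slide as a block, and the normexp points of 5 genes lie on the other side of 0 from the black points.

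The 2 zones were then compared as groups. The 6 central genes had a median difference of -0.17, with 2 above 0 and 4 below, and the 4 portal genes a median of -0.24, with 4 below 0, where the median of all genes was -0.02. With slide as a block the medians were -0.12 and 0.08, so that the portal median changed sign, as it did with a normexp background (0.04). The hepatocyte markers, which were not chosen by zone, had a median of -0.34, or -0.29 with slide as a block. Relative to the normal chow mean of each gene, the median of the central genes was -0.04, 0.01 and 0.06 on the normal chow arrays, -0.12 on high-Chol 1, and -0.32 and 0.14 on slide 2. The median of the portal genes was 0.20, -0.21 and 0.03 on the normal chow arrays, 0.08 on high-Chol 1, and -0.40 and -0.41 on slide 2. The central median minus the portal median, which no scaling constant of an array can change, was -0.24, 0.22 and 0.04 on normal chow, -0.20 on high-Chol 1, and 0.08 and 0.56 on slide 2. The diets overlapped in this measure, and high-Chol 3 alone lay outside the range of normal chow.

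Livers of the same diet were compared as well, 1 array against 1 and with no test. High-Chol 2 and high-Chol 3 shared diet and slide, and the log2 level of 5 of the 6 central genes was higher on high-Chol 3, with a median difference of 0.43 over the 6. Over all 16444 genes with both values, 51.8% were higher on high-Chol 3, the median was 0.01, and the 5th and 95th percentiles were -0.59 and 0.64. Rhbg differed by 1.00 between these livers, Slc1a2 by 0.84, Glul by 0.55 and Oat by 0.31, and 3.06%, 4.87%, 12.3% and 30.7% of all genes differed by more in either direction. Axin2 and Tbx3 differed by 0.01 and -0.01. Of 16 other genes for ammonia, glutamate and ornithine handling, 12 were higher on high-Chol 3, with a median of 0.17. Of 15 other central genes, 13 were higher on high-Chol 3, with a median of 0.51. The largest gap was that of Cyp7a1, the rate-limiting enzyme of bile acid synthesis, whose log2 level was 1.05 on high-Chol 2 and 5.36 on high-Chol 3, a difference of 4.31. The mean shift of these 15 genes from the normal chow mean was -0.67 on high-Chol 2 and -0.04 on high-Chol 3. On the normal chow arrays, which also shared a slide, it was -0.25, 0.04 and 0.20. For the 6 central genes it was 0.01, -0.03 and 0.02 on the normal chow arrays. Among the portal genes Sds alone was higher on high-Chol 3, by 0.56, and Gls2, Cdh1 and Hal differed by -0.02, -0.15 and -0.34. Of 15 other portal genes with both values, 8 were higher on high-Chol 3, with a median of 0.05.

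**Figure D3:**
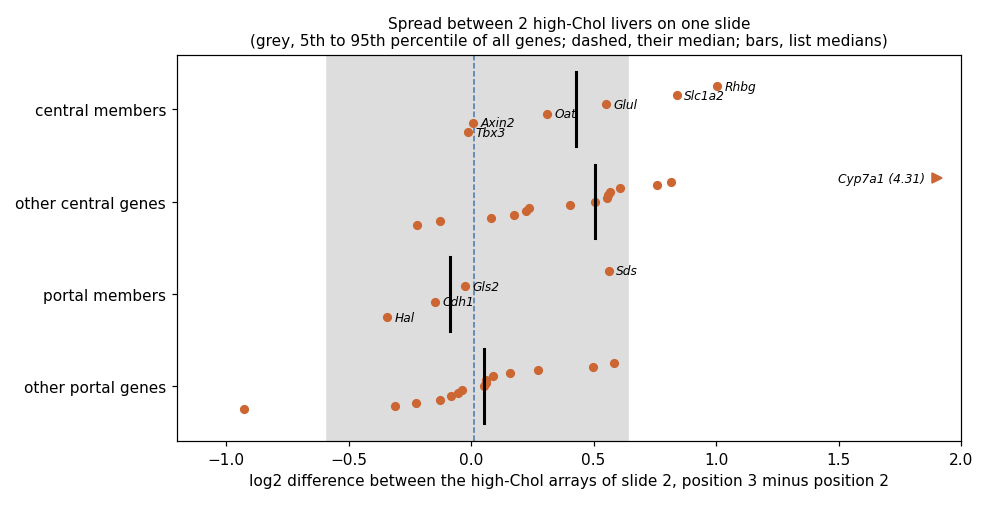
Log2 level on high-Chol 3 (position 3 of slide 2) minus that on high-Chol 2 (position 2), for the central and portal genes and the other genes of each zone; the grey band runs from -0.59 to 0.64, the 5th to 95th percentile of all genes. Points are genes and bars are list medians, 0.43 for the central genes, 0.51 for the other central genes, -0.09 for the portal genes and 0.05 for the other portal genes, with Cyp7a1 (4.31) drawn at the edge.

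Genes that mark the same zones but were not among the 10 were read next. Of 15 other central genes tested, 2 had a difference above 0 and 13 below, 0 were called by limma (1 at an unadjusted p under 0.05, a lower one, beside 8.83% of all genes), and the median was -0.28, or -0.23 with slide as a block. Por, the electron donor of the microsomal cytochromes P450, differed by -0.75 (-1.11 with slide as a block), Cyp1a2 by -0.58 (-0.045 with slide as a block), Rgn by -0.51 without overlap of the diets (adjusted p = 0.206 by limma, and -0.17 with slide as a block), and Cyp7a1 by -1.33 with the spread given above. Of 16 other portal genes, 4 were above 0 and 12 below, 0 were called by limma (5 at an unadjusted p under 0.05, of which 2 were higher and 3 lower, beside 12.3% and 8.83% of all genes), and the median was -0.27, or -0.09 with slide as a block. The diets did not overlap in 2 of these portal genes that were higher and in 6 that were lower, beside 11.9% and 14% of all genes. G6pc and Fbp1, 2 genes of the same pathway, lay on opposite sides of 0. G6pc, which releases glucose from the cell, was at 5.04, 4.79 and 5.35 on normal chow and at 6.64, 6.52 and 5.59 on the high-Chol arrays, a difference of 1.19 (SE 0.31, adjusted p = 0.104 by limma). Fbp1, an earlier enzyme of gluconeogenesis, was at 8.96, 8.88 and 8.89 on normal chow and at 8.39, 8.36 and 8.41 on the high-Chol arrays, a difference of -0.52 (SE 0.13, adjusted p = 0.103 by limma). Neither gene overlapped between the diets. The high-Chol arrays of Fbp1 lay close together on both slides, whereas high-Chol 3 of G6pc lay nearer to normal chow than the other two. Ctsc, a protease of lysosomes, differed by 0.65, and Uroc1, which acts after Hal in histidine breakdown, by -0.53 (-0.29 with slide as a block), also without overlap.

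For the Wnt pathway around Axin2 and Tbx3, 19 of 22 genes were tested, 9 had a difference above 0 and 10 below, 0 were called by limma (2 at an unadjusted p under 0.05, 1 in each direction, beside 12.3% and 8.83% of all genes), and the median was -0.07. Lgr5, a receptor for R-spondins that is restricted to central hepatocytes, was at -1.62, -1.97 and -1.57 on normal chow and at -1.21, -1.31 and -1.33 on the high-Chol arrays. Its diets did not overlap, at a difference of 0.44 (SE 0.16, adjusted p = 0.203 by limma), and as for Axin2 the sign turned with a normexp background (-0.06). Rnf43, a ligase that removes Wnt receptors and is itself a Wnt target, was at 2.70, 2.35 and 2.52 on normal chow and at 1.63, 1.53 and 2.23 on the high-Chol arrays. It did not overlap in the opposite direction, at -0.73 (SE 0.22, adjusted p = 0.151 by limma). Wnt9b, a Wnt of the central vein, differed by 0.62 with overlap, by 0.33 with slide as a block and by 0.01 with a normexp background. Myc differed by -1.12, where 1 normal chow array stood at 2.47 and the other two at -0.58 and -0.10. Receptors and targets of the pathway thus lay on both sides of 0.

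Among 16 genes tested for ammonia, glutamate and ornithine handling, the work that Glul, Oat, Rhbg, Slc1a2 and Gls2 share, 3 differences were above 0 and 13 below, with a median of -0.33, or -0.10 with slide as a block, and 6 reached an unadjusted p under 0.05 in limma (2 higher and 4 lower, beside 12.3% and 8.83% of all genes). The differences ran from -0.98 to 1.56. Slc38a3, the glutamine transporter of hepatocytes, was at 6.62, 6.68 and 7.03 on normal chow and at 6.02, 5.58 and 5.79 on the high-Chol arrays. It fell by 0.98 on the log2 scale (SE 0.19, adjusted p = 0.0451 by limma), beside 0.227% of all genes called lower and 2.69% called higher. With slide as a block the difference was -0.76 and was not called. Slc38a3 was lower under each other background, scaling and array left out. Of these settings it was called with scaling to the median and without high-Chol 1. In the latter, diet and slide cannot be told apart, and 761 genes were called lower. Aldh18a1, which makes the precursor of proline and ornithine from glutamate, was at -4.81, -4.45 and -4.62 on normal chow and at -3.42, -3.80 and -3.68 on the high-Chol arrays. The difference was 0.99 (SE 0.17, adjusted p = 0.0346 by limma), but its probe was well above background on 1 of 3 normal chow arrays and on 3 of 3 high-Chol arrays. It thus entered the test only through the diet in which it was high, so its call carries no weight here. With slide as a block it was not called (adjusted p = 0.128 by limma), a normexp background turned its sign (-0.61), and it was called in 3 of the 15 other settings that gave a value. The upper end of the range was Rhcg, an ammonia channel related to Rhbg, named here after its values were seen. It was at -3.98, -3.63 and -3.71 on normal chow, at -4.02 on high-Chol 1, the lowest of the 6, and at -1.26 and -1.36 on slide 2. The difference was 1.56 (SE 0.70, adjusted p = 0.252 by limma) with overlap, and -0.25 with slide as a block. Without high-Chol 1 it was 2.46 (adjusted p = 0.00230 by limma), beside 13.9% of all genes called higher, but diet and slide cannot be told apart there. The probe was well above background on 2 of 3 normal chow arrays and on 3 of 3 high-Chol arrays. Rhcg too entered the test only through the diet in which it was high, so that call carries no weight.

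The 9 genes tested for histidine and serine catabolism, beside Hal and Sds, had 2 differences above 0 and 7 below, 0 called by limma (3 at an unadjusted p under 0.05, all of them lower, beside 8.83% of all genes), and a median of -0.23, or -0.04 with slide as a block. Ftcd, which ends histidine breakdown by passing its carbon to folate, was at 7.16, 7.26 and 7.17 on normal chow and at 6.84, 6.50 and 6.47 on the high-Chol arrays. The difference was -0.60 (SE 0.16, adjusted p = 0.115 by limma), without overlap, and -0.36 on slide 1 alone. Shmt1 and Shmt2, which split serine to glycine, differed by -0.50 and -0.64, of which -0.10 and -0.04 were seen on slide 1 alone.

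**Figure D4:**
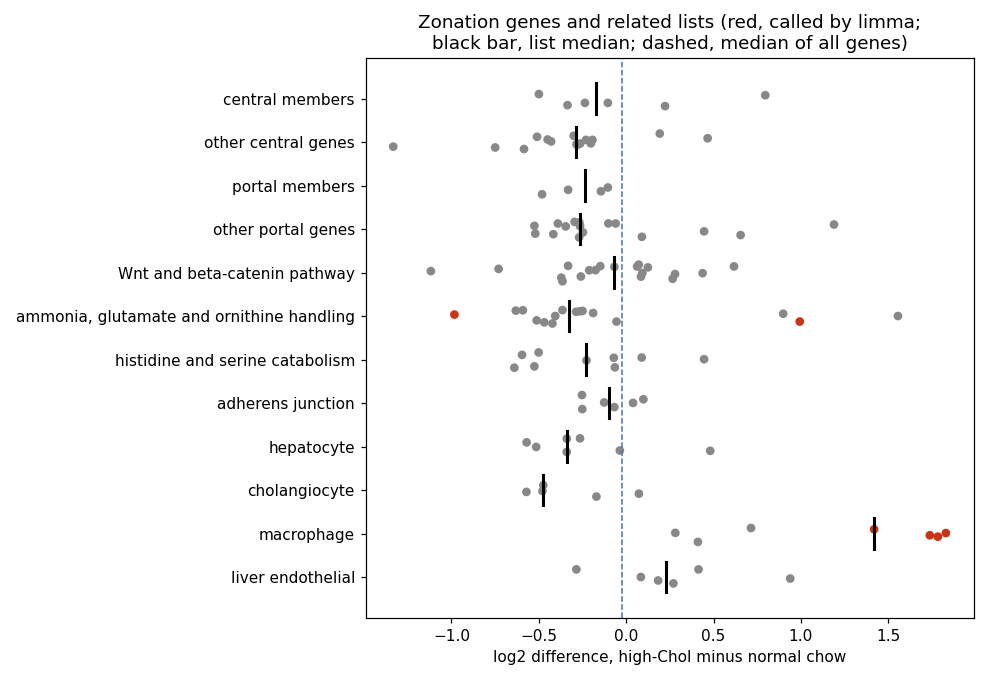
Diet difference (x axis, log2, high-Chol minus normal chow) of every gene tested in the lists drawn, with grey points for genes not called by limma, red points for genes called, black bars for list medians and a dashed line at the median of all genes (-0.02). The central and portal genes hold no red point, the ammonia list holds Slc38a3 (-0.98) and Aldh18a1 (0.99), and the 4 red macrophage points lie between 1.42 and 1.83.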

How the data were processed

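The authors read one-colour arrays with Agilent Feature Extraction, which subtracted the background, and deposited the intensity of every spot with no normalization between arrays. Its version is 9.1 per the labels, and 9.5 for slide 1 and 9.1 for slide 2 per the file headers. A deposited table gives a single log2 value for each diet at 23458 probes, made in Gene Spring GX with settings that the methods leave out; its columns have medians of -0.0019 and -0.273. Regressed on those of the scanner output, its diet differences gave a slope of 1.00, with a mean offset of -0.241.

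From each log2 intensity, the log2 of the array's 75th percentile over 43379 non-control spots was subtracted. Spots marked as outliers were left out (75 to 196 per array), saturated spots kept (0 on 5 arrays and 5 on the sixth), and spots of a probe averaged. The filter asked for a probe well above background on every array of 1 diet or more, and each gene was read from its brightest probe. The zonation genes had 14 probes with 23 spots, and Glul and Slc1a2 each had a second probe that passed the filter. In R 4.3.3, limma 3.58.1 (lmFit, then eBayes) compared 3 arrays with 3 and gave Benjamini-Hochberg adjusted p-values over all 16727 genes, with a threshold of 0.05. limma was tested on simulated data. The number of arrays limits the precision. Tables and plots used pandas 2.3.3 and matplotlib 3.10.9 in Python 3.11.15.

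The zonation genes and the gene lists were chosen with earlier results of these data known. Named in the text are the 10 genes and, per list other than those of cell types, the genes called or, where none or over 6 were called, the 4 with the largest difference. Rhcg was added after its values were seen. Of the cell type lists, the genes called and all hepatocyte markers tested are named. The comparison of the arrays of slide 2 was also chosen after its values were seen. The result of 1 list gene is not reported here. Among list genes, Amt and Serpina1a were not matched to the array, and Slc22a3, Rspo1, Rspo3, Lef1, Slc1a1, Rhag, Pycr1, Itgam and Cftr did not pass the filter. Other settings tried were quantile normalization, median scaling, normexp (offset 50), a filter for all 6 arrays or none, every probe by itself or the mean of a gene's probes, a block for slide, leaving out each array, the methods' t-test and the authors' values; the fit to slide 1 alone was added after seeing the data. A tested probe's position is that of the array annotation (mm7), and promoters are from RefSeq.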

Additional observations from a re-analysis of the deposited data

How the results depend on the processing

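No paired analysis was possible because no label ties an array of one diet to an array of the other. The 488 genes called overall became 0 with a normexp background (unadjusted p under 0.05 for 267 higher and 39 lower genes), 26 with no filter, 11 with slide as a block, 4 within slide 1 and 5 with the methods' t-test, and ran from 42 (without normal chow 2) to 3075 (without high-Chol 1) with an array left out. In each of these settings 0 portal genes were called, and the number of central genes called was 0, or 1 without high-Chol 1 (Axin2), a range of 0 to 1. The median of all genes was -0.11 with a normexp background and -0.26 after scaling to the median. The central median was -0.031 with a normexp background, -0.032 with quantile normalization, -0.41 after scaling to the median and -0.41 in the authors' values, and -0.30 to 0.061 with an array left out, with 0.061 without high-Chol 2. The portal median was 0.040 with a normexp background, -0.13 with quantile normalization, -0.47 after scaling to the median, -0.48 in the authors' values, 0.076 in the fit that blocks on slide and 0.076 within slide 1, and -0.47 (without high-Chol 1) to -0.14 with an array left out. The sign turned with a normexp background for Glul (0.20), Rhbg (0.027), Axin2 (-0.088), Gls2 (0.17), Hal (0.19), Lgr5 (-0.058), Ctnna1 (0.17), Aldh18a1 (-0.61) and Rhcg (-0.12). It turned with quantile normalization for Glul (0.10), Gls2 (0.023), Hal (0.069) and Ctnna1 (0.053). With scaling to the median and in the authors' values it turned for Oat (-0.014 and -0.020) and Cdh2 (-0.14 and -0.14). Slide as a block and the fit within slide 1 turned Glul (0.037), Oat (-0.16), Hal (0.51), Cdh1 (0.27), Jup (0.083), Ctnnd1 (0.35), Ctnna1 (0.096), Cdh2 (-0.17) and Rhcg (-0.25). With an array left out, Glul ran from -0.21 to 0.068, Rhbg from -0.45 to 0.055, Hal from -0.41 to 0.13 and Cdh2 from -0.041 to 0.23. Slc1a2, Tbx3 and Sds kept their sign under each other background and scaling, with slide as a block and with each array left out. The causes of these changes were not tested.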

Other observations

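Across the 6 arrays and 14042 genes well above background on all of them, the genes whose log2 level was most like that of Glul were Ik, AK080016, Wwc1, Abcd4 and Cpm, with Pearson's r from 0.952 to 0.977. These were the 5 genes with r above 0.95, and their diet differences ran from -0.30 to -0.01. For Gls2, 128 genes had r above 0.95, and the closest were NAP053178-1, 9330151L19Rik, Spfh1, Eps15l1 and Olfr139, with r from 0.988 to 0.999 and diet differences from -0.78 to -0.31. The arrays of a diet lay close together for Gls2, so a high r with it picks genes that are lower on the high-Chol diet. The sign of their diet differences is therefore no separate result. The correlations are across 6 arrays that share slides and scaling, and they are given as a description.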
